A study of Bos taurus with 16 samples.

Results

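Granulosa-rich and leukocyte-rich libraries were compared in RNA sequencing of ovarian follicle aspirates from Holstein dairy cows. The libraries of each kind were chosen by their measured level of 1 gene, INHA (the inhibin alpha subunit): a library with more than 1000 CPM of INHA (counts scaled by library size) was called granulosa-rich and a library with fewer than 200 CPM leukocyte-rich. This placed 9 of the 16 libraries in the first kind (control replicates 2, 3, 4, 7 and 8 and treatment replicates 4 to 7) and 7 in the second (control replicates 1, 5, 6 and 9 and treatment replicates 1 to 3). No library lay between the bounds: the lowest granulosa-rich library (treatment replicate 4) had 1759 CPM of INHA and the highest leukocyte-rich library (treatment replicate 1) 111 CPM. INHA is left out of all further results on single genes and gene groups. Its counts remain in the library totals, the features detected and the share of the features with most counts.

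All cows were lactating females of 1 cohort of 45 animals on 1 dairy unit, fed a total mixed ration. Their ovulation had been synchronised with gonadotropin-releasing hormone and prostaglandin F2α, and the dominant follicle was aspirated at 63 ± 3 days after calving, before the second injection of the releasing hormone. The labels name the samples only control (9) and treatment (7), and they do not say what treatment stands for. Per the design text, cows with metritis were given the antibiotic ceftiofur, but no label ties a library to a cow or to a diagnosis. Poly(A) RNA was sequenced from pelleted and washed cells that the protocol calls granulosa cells, while the tissue field of every library reads blood. No sort or gate was applied to the pellet, so a library can hold any cell of the aspirate. Nothing says that libraries of 1 label came from separate cows, and p-values therefore measure the spread between these libraries, which may be technical.

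Granulosa cells line the inside of the ovarian follicle, surround the oocyte and, under follicle-stimulating hormone, convert theca androgen into oestradiol and secrete inhibins, activins and follistatin. Monocytes are blood phagocytes that become macrophages in tissue, where they engulf debris, sense microbial products through Toll-like receptors and recruit other leukocytes with chemokines. Macrophages and lymphocytes are known from the wall of the follicle and from blood.

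The kinds are not groups of the study. They were cut from INHA in the same libraries whose other genes are compared, so the differences between them are given as a description and not as a test. Values are CPM adjusted by the trimmed mean of M-values. Fold changes are on the log2 scale, granulosa-rich minus leukocyte-rich, with the control or treatment label held in the fit, and with a standard error (SE). A gene is counted as set apart where edgeR's quasi-likelihood fit gave an adjusted p under 0.05, used here only as a rule for counting. In bulk RNA of this kind, fewer cells of a type and less RNA per cell cannot be told apart.

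The libraries held 8111862 to 14348753 counts. Total counts were 11391100 ± 1814760 (SD, n = 9) in granulosa-rich and 11263900 ± 1977900 (SD, n = 7) in leukocyte-rich libraries (two-sided exact permutation test over 11440 splits, p = 0.893, adjusted over 2 properties 0.893). Features at 1 CPM or more numbered 8687 ± 776 (SD, n = 9) and 9061 ± 330 (SD, n = 7) (two-sided exact permutation test, p = 0.257, adjusted p = 0.515). Neither difference passed at an adjusted p under 0.05. The 10 features with most counts took 14.8 to 25.5% of the counts in granulosa-rich libraries and 8.71 to 10.1% in leukocyte-rich ones, with no overlap. INHA, which made the kinds, was not removed from these shares, so part of that difference may follow from the rule. INHBA, the activin beta A subunit, took 4.77% of counts on average in granulosa-rich libraries, SERPINE2, a secreted protease inhibitor, 4.09%, and CYP19A1 1.79%.

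Of 9652 features tested, 2167 were set apart as higher in granulosa-rich libraries (22.5% of those tested) and 2020 as higher in leukocyte-rich libraries (20.9%), 43.4% together. At 16-fold or more, the counts were 339 and 217, and at 64-fold or more 101 and 21. The libraries of the kinds did not overlap at all for 822 features higher in granulosa-rich (8.52%) and 1013 higher in leukocyte-rich libraries (10.5%), 19.0% together. The median fold change over all features tested was 0.03. Since the cut and the comparison share their libraries, nothing is read from these counts, and they serve as the background for the gene groups below. The plot of difference against mean level shows both sides.

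**Figure D1:**
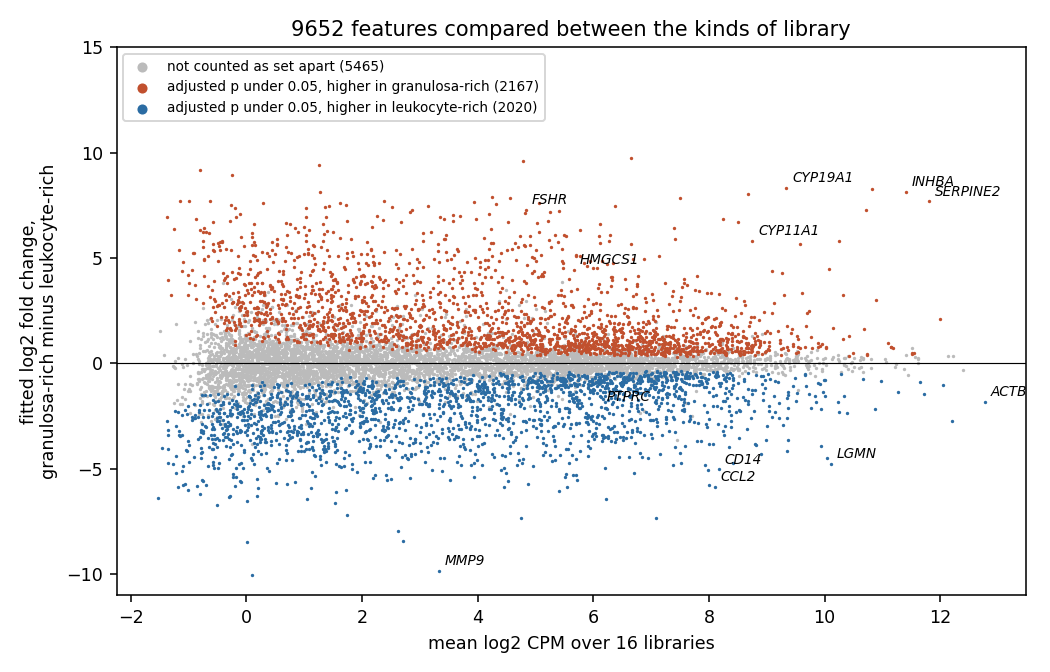
Fitted log2 fold change (granulosa-rich minus leukocyte-rich, vertical axis) against mean log2 CPM over 16 libraries (horizontal axis), 1 point per feature. Orange (2167) and blue (2020) points had an adjusted p under 0.05, grey points (5465) did not, and large differences occur at every level from low to high counts.

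The marker genes of both names were high where the names say. FSHR, the receptor of follicle-stimulating hormone, lay between 112 and 622 CPM in granulosa-rich libraries (median 474) and between 0.0837 and 14.8 CPM in leukocyte-rich ones (median 0.411). CSF1R, the receptor for the macrophage growth factor CSF1, lay between 3.67 and 129 CPM (median 83.7) against 1195 to 2932 CPM (median 2348). Both genes separated the kinds with no overlap, at 7.30 ± 1.04 and -5.04 ± 0.58 (SE).

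CD14, the lipopolysaccharide co-receptor of monocytes and macrophages, had a median of 54.7 CPM in granulosa-rich and 2798 CPM in leukocyte-rich libraries, at -5.02 ± 0.69 (SE). PTPRC (CD45), carried by leukocytes of every class, had a median of 39.4 against 162 CPM, at -2.07 ± 0.43 (SE), a smaller difference than that of CD14 or CSF1R. CYP19A1, the aromatase that makes oestradiol, had a median of 24516 against 13.6 CPM, at 8.34 ± 1.75 (SE). It was the marker whose ranges overlapped: treatment replicate 7, granulosa-rich by INHA, held 281 CPM and treatment replicate 1, leukocyte-rich by INHA, 902 CPM. The other granulosa-rich libraries lay at 7617 CPM or above and the other leukocyte-rich ones at 32.5 CPM or below.

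**Figure D2:**
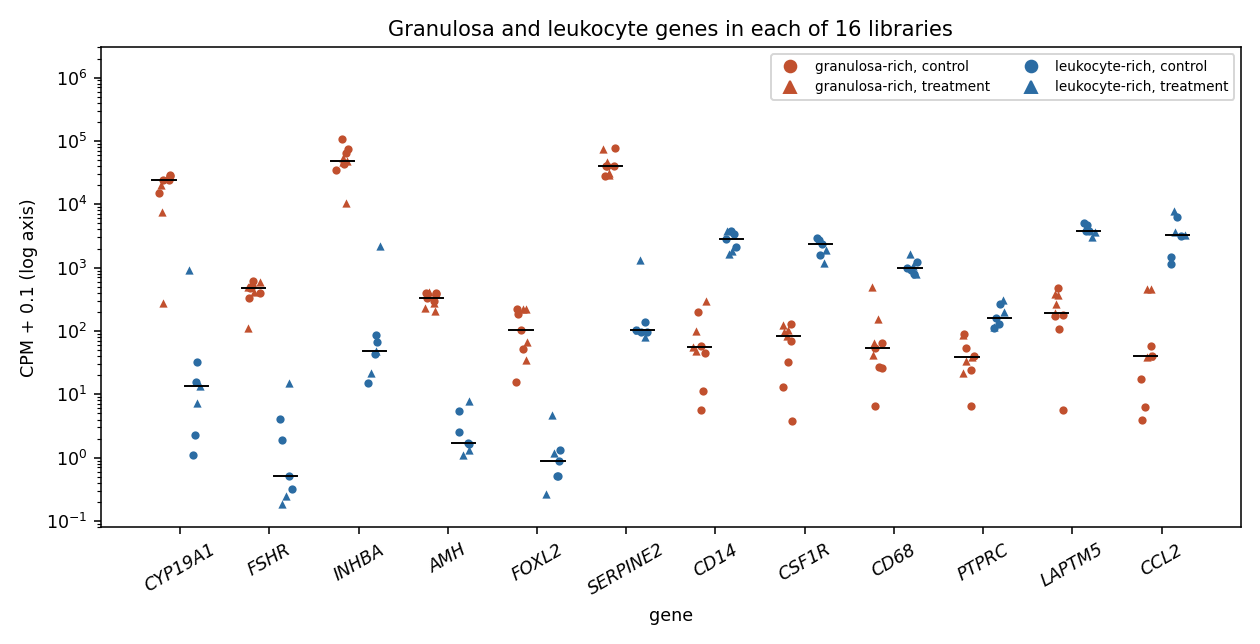
CPM + 0.1 (log axis) of 12 genes in each of 16 libraries, with granulosa-rich libraries in orange, leukocyte-rich libraries in blue, control as circles, treatment as triangles and the median of each kind as a bar. CYP19A1 has 1 orange point (281 CPM) below 1 blue point (902 CPM), while for the other 11 genes the colours do not overlap.

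Granulosa markers, the first group on the granulosa side, had 15 tested members of 18 chosen, beside INHA. Of these, 12 were set apart as higher in granulosa-rich libraries and none as higher in leukocyte-rich ones, with a median of 6.72, against 22.5%, 20.9% and 0.03 over all features. NPPC did not pass the filter on low counts, and GATM, IHH and CDH2 were not set apart (-0.58, 1.15 and 2.27). AMH, the anti-Müllerian hormone of growing follicles, lay between 206 and 408 CPM (median 337) against 1 to 7.62 CPM (median 1.6), a fold change of 6.77 ± 0.50 (SE). FOXL2, the transcription factor that maintains granulosa identity, lay between 15.4 and 226 CPM (median 102) against 0.167 to 4.59 CPM, at 6.77 ± 0.81 (SE). Neither gene overlapped between the kinds, although FOXL2 varied more than AMH among the granulosa-rich libraries.

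Among the secreted factors, INHBA lay between 10411 and 108924 CPM in granulosa-rich libraries (median 47587) and between 14.7 and 2161 CPM in leukocyte-rich ones (median 48.6), at 8.14 ± 1.34 (SE). FST (follistatin, which binds and inactivates activin) lay between 2702 and 24850 CPM against 2.55 to 189 CPM, at 8.03 ± 1.02 (SE). Of 12 tested members of the inhibin, activin and AMH system, 8 were set apart as higher in granulosa-rich libraries and none the other way (median 3.25). The shares over all features were 22.5% and 20.9%. The receptors were mixed: BMPR1B, a receptor for bone morphogenetic proteins, was at 5.11 ± 0.76 (SE), while ACVR1 and BMPR2 were not set apart (-1.41 and 0.98), nor were the inhibitor FSTL3 and the signal transducer SMAD3 (-0.10 and 0.04).

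Receptors and signalling followed. LHCGR, the luteinising hormone receptor, lay between 0.595 and 98.5 CPM in granulosa-rich libraries (median 49.4), was at 0 in 6 leukocyte-rich libraries and at 1.76 CPM in treatment replicate 1, where the fit gave 7.44 ± 1.37 (SE). Without treatment replicate 1, the leukocyte-rich libraries are all at 0 and the fitted value, 12.06, depends on the prior count and is no measure of size. PRKAR2B, a regulatory subunit of protein kinase A, lay between 149 and 981 CPM against 22.5 to 99.9 CPM, at 3.65 ± 0.48 (SE). The shares of all features set apart were 22.5% on the granulosa side and 20.9% on the leukocyte side. Of 7 tested members of gonadotropin and growth factor signalling, 6 were set apart as higher in granulosa-rich and 1 as higher in leukocyte-rich libraries. That one was IGFBP5, a binding protein of insulin-like growth factors, at -3.08 ± 0.95 (SE), and at -1.98 and no longer set apart without control replicate 6.

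Steroid synthesis had 13 tested members, of which 10 were set apart as higher in granulosa-rich libraries and none the other way (median 2.53). The shares over all features were 22.5% and 20.9%. CYP11A1, which cuts the cholesterol side chain to pregnenolone, lay between 2475 and 6508 CPM against 2.68 to 225 CPM, at 5.83 ± 0.91 (SE). HSD3B1, the next step towards progesterone, was at 5.53 ± 0.99 and SCARB1, a receptor that takes up lipoprotein cholesterol, at 3.68 ± 0.88 (SE). STAR, which moves cholesterol into mitochondria, did not follow: it lay between 11.6 and 375 CPM (median 49.1) in granulosa-rich and between 8.2 and 247 CPM (median 63.7) in leukocyte-rich libraries, at 0.19 ± 0.73 (SE). The ranges of STAR covered each other almost entirely.

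The enzymes that build cholesterol differed as a group. Of 14 tested members, 13 were set apart as higher in granulosa-rich libraries, none the other way, and 9 had no overlap (median 3.19). Over all features, 22.5% were set apart and 8.52% had no overlap in that direction. HMGCS1, an early enzyme of the pathway, lay between 105 and 775 CPM (median 160) against 6.38 to 16.4 CPM (median 7.56), at 4.46 ± 0.43 (SE), with no overlap. SQLE (squalene epoxidase, a later step) had a median of 637 against 36.2 CPM, at 3.81 ± 0.37 (SE).

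Of 9 tested ovarian transcription factors and steroid receptors, 8 were set apart as higher in granulosa-rich libraries (median 5.18), and LHX9 was not (1.27). NR5A1 (steroidogenic factor 1), which drives steroid enzyme genes, lay between 88 and 460 CPM against 0.167 to 11.5 CPM, at 5.62 ± 0.71 (SE). The oestrogen receptor ESR2 was at 5.18 ± 0.70 (SE). Cell contact and matrix genes were divided. GJA1 (connexin 43), which couples granulosa cells to each other, lay between 5129 and 20913 CPM against 14.1 to 668 CPM, at 5.83 ± 0.87 (SE), and COL4A1, a basal lamina collagen, between 895 and 10490 CPM against 27.3 to 683 CPM, at 4.31 ± 0.81 (SE). In these 2 groups 4 of 10 cell junction genes and 2 of 7 matrix genes were set apart, all higher in granulosa-rich libraries. Among all features 22.5% were set apart in that direction and 43.4% in either, so these shares are not read as results about the groups. The junction protein CTNNA1 and the laminin chain LAMC1 were at -0.13 ± 0.14 and 0.55 ± 0.28 (SE).

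Among genes with no overlap whose mean log2 CPM in granulosa-rich libraries reached 5, listed or not, those with the largest differences towards that side were TNFAIP6, FGF2, GSTA1, INHBA, FST, GSTA5, CHST8, SERPINE2, GSTM3, EMID1, TNNI3 and AKAP4. SERPINE2 lay between 28326 and 76328 CPM against 79.6 to 1341 CPM, at 7.69 ± 0.77 (SE). Glutathione transferases, which conjugate toxic and oxidised compounds, were 3 of the 12: GSTA1 lay between 12801 and 71604 CPM against 8.88 to 1039 CPM (8.29 ± 1.19, SE), GSTA5 was at 7.86 ± 1.08 and GSTM3 at 7.60 ± 0.64 (SE). GSTA1 and GSTA5 are close relatives, and reads could have been divided between them. TNNI3, the cardiac inhibitory troponin, lay between 339 and 1588 CPM against 0.904 to 46.5 CPM, at 7.48 ± 0.97 (SE). TNFAIP6, which crosslinks the hyaluronan matrix of the cumulus, had the largest fold change of the 12, 9.75 ± 1.65 (SE), and FGF2 the next, 9.61 ± 2.17 (SE). Both, like AKAP4, were highest by far in a few libraries described further on.

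Theca markers, from the steroid-making layer outside the granulosa, also lay on the granulosa side. Of 6 tested, 4 were set apart as higher in granulosa-rich libraries (median 4.76), against 22.5% of all features. INSL3, a hormone of theca cells, lay between 35.2 and 254 CPM against 0 to 2.73 CPM, at 6.93 ± 0.74 (SE). CYP17A1, the androgen-making enzyme, lay between 1.09 and 868 CPM (median 348) against 0.14 to 11.6 CPM, at 6.84 ± 1.43 (SE), with treatment replicate 4 inside the leukocyte-rich range. The other 2 tested members were not set apart: STAR, given above, and ACTA2 (smooth muscle actin), at -2.52 towards the leukocyte-rich side. LHCGR and STAR also stand in the lists of gonadotropin signalling and steroid synthesis. The part of theca RNA in the other differences was not tested.

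**Figure D3:**
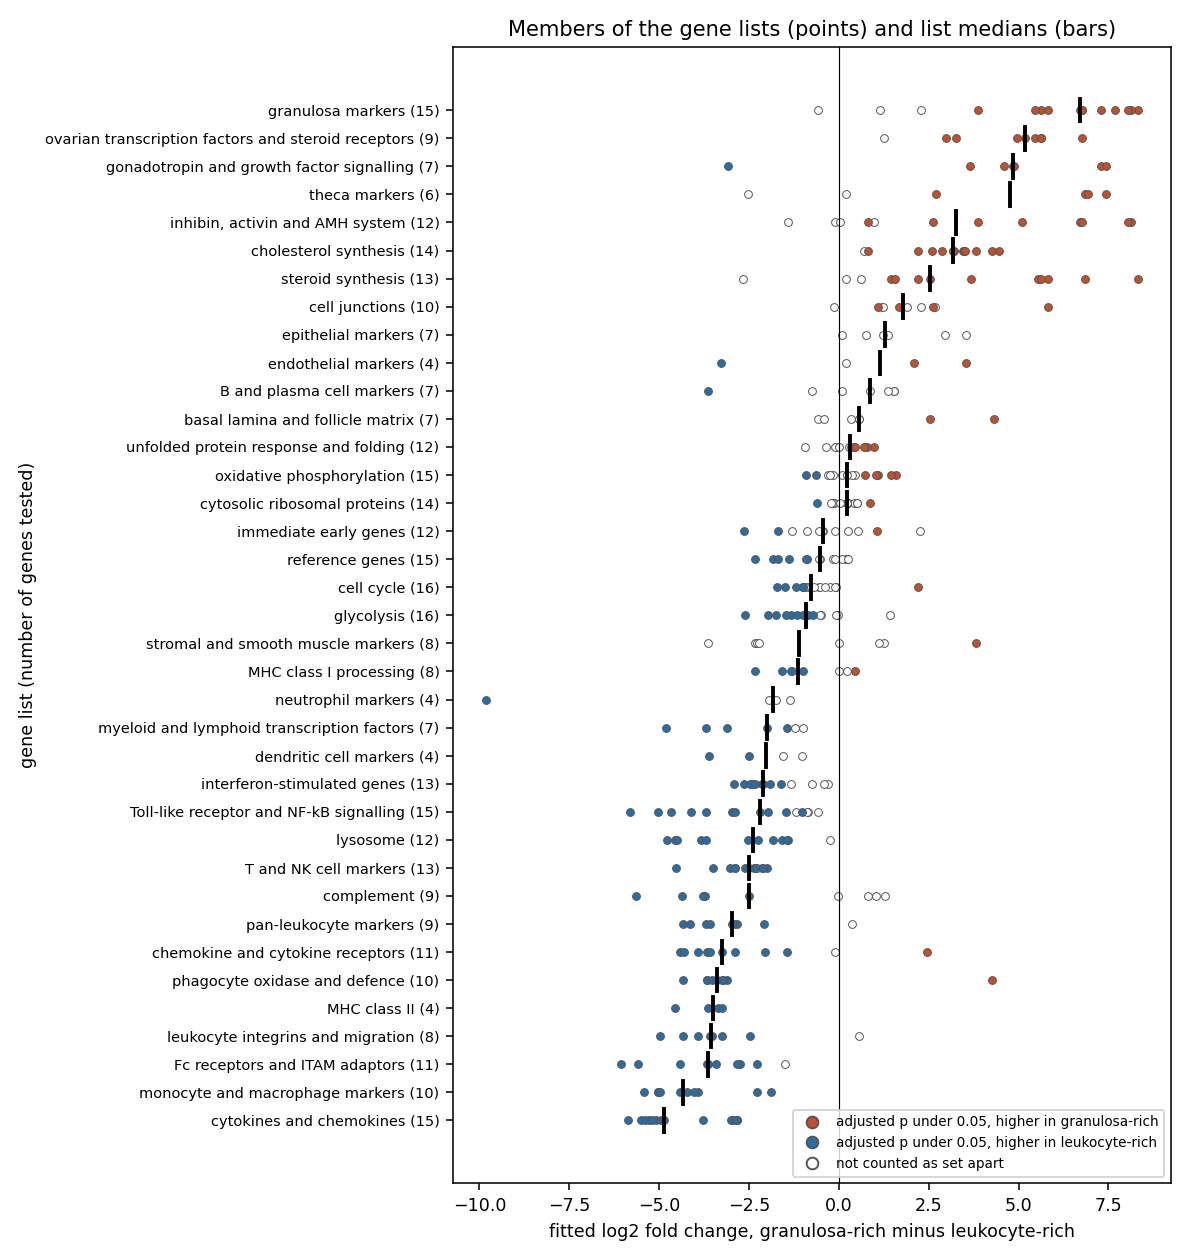
Fitted log2 fold change (granulosa-rich minus leukocyte-rich, horizontal axis) of each tested member of 37 gene lists (vertical axis, number tested in brackets), with filled points for an adjusted p under 0.05 and a bar at each list median. Granulosa markers (median 6.72) stand at the top and cytokines and chemokines (median -4.87) at the bottom.

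On the leukocyte side, 8 of 9 tested pan-leukocyte markers were set apart as higher in leukocyte-rich libraries (median -2.97), against 20.9% of all features. LAPTM5, a lysosomal membrane protein of leukocytes, lay between 5.55 and 470 CPM in granulosa-rich libraries (median 189) and between 3075 and 4999 CPM in leukocyte-rich ones (median 3828), at -4.14 ± 0.55 (SE). ITGB2, the beta chain of the leukocyte integrins, was at -4.33 ± 0.79 (SE) with no overlap. The exception was SRGN (serglycin, a proteoglycan of secretory granules), at 1621 to 12541 CPM against 2023 to 10483 CPM and 0.35 ± 0.41 (SE): its level did not separate the kinds.

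Every one of the 10 tested monocyte and macrophage markers was set apart as higher in leukocyte-rich libraries, 9 without overlap (median -4.33). Over all features, 20.9% were set apart and 10.5% did not overlap in that direction. CD68, a lysosomal glycoprotein of macrophages, lay between 6.36 and 488 CPM (median 53.5) against 780 to 1626 CPM (median 974), at -3.91 ± 0.61 (SE). ITGAM (CD11b), an integrin chain of myeloid cells, lay between 0.571 and 126 CPM against 357 to 1179 CPM, at -4.96 ± 0.80 (SE). CD163, a scavenger receptor for haemoglobin, lay near the limit of counting, with 0 to 1.89 CPM against 2.38 to 16.9 CPM and -5.41 ± 0.98 (SE). Among myeloid transcription factors, CEBPA was at -4.82 ± 0.72 and IRF8 at -3.71 ± 0.82 (SE), both without overlap. CEBPB, a factor of macrophages that is also induced in ovulatory granulosa cells, was not set apart (-0.99 ± 0.56, SE).

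Sensing and signalling genes of phagocytes lay on the same side, where 20.9% of all features were set apart. Of 11 tested Fc receptors and adaptors with an immunoreceptor activation motif, 10 were set apart as higher in leukocyte-rich libraries (median -3.64). TREM2, a lipid-sensing receptor of macrophages, lay between 0 and 7.14 CPM against 16.2 to 63.2 CPM, at -6.07 ± 1.01 (SE), and its relative TREM1, which amplifies inflammation, between 1.52 and 13.6 CPM against 90.7 to 478 CPM, at -5.60 ± 0.55 (SE). Their shared adaptor TYROBP was at -4.41 ± 0.63 (SE). Of 15 tested genes of Toll-like receptor and NF-kB signalling, 11 were set apart (median -2.20). TLR2 was at -4.68 ± 0.87, TLR4 at -4.12 ± 0.81 and NFKBIA, the inhibitor induced by NF-kB, at -3.69 ± 0.52 (SE), the last with 8.97 to 200 CPM against 467 to 2467 CPM. TLR7, a sensor of single-stranded RNA, was at or below 0.267 CPM in every granulosa-rich library and between 2.09 and 6.08 CPM in the others.

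Cytokines and chemokines had the lowest median of all groups with 3 or more tested members, -4.87. All 15 tested members were set apart as higher in leukocyte-rich libraries and 7 had no overlap, against 20.9% and 10.5% of all features. CCL2, which recruits monocytes, lay between 3.86 and 463 CPM (median 39.6) against 1128 to 7724 CPM (median 3225), at -5.87 ± 0.87 (SE). The anti-inflammatory IL10 lay between 0 and 2.67 CPM against 20.5 to 170 CPM, at -5.51 ± 0.62 (SE). The neutrophil attractant CXCL8 was at -5.27 ± 1.34, IL1A at -5.10 ± 1.20, IL6 at -4.96 ± 0.96 and IL1B at -2.96 ± 1.09 (SE), so genes of both inflammatory and anti-inflammatory products lay on this side. Of 11 tested receptors for them, 9 were set apart as higher in leukocyte-rich libraries (median -3.26), among them CCR1 at -4.41 ± 0.76 (SE).

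Degradation and oxidant genes followed, beside the 20.9% of all features set apart as higher in leukocyte-rich libraries. Of 12 tested lysosomal genes, 11 were set apart as higher in leukocyte-rich libraries (median -2.39). LGMN (legumain, a lysosomal protease) lay between 47.9 and 3281 CPM (median 190) against 4351 to 13136 CPM (median 8932), at -4.77 ± 0.75 (SE), and CTSS (cathepsin S, which trims the invariant chain) between 1.31 and 29.4 CPM against 148 to 484 CPM, at -4.57 ± 0.55 (SE). LAMP1, a membrane protein of lysosomes in all cells, differed less, at -1.83 ± 0.19 (SE), still without overlap. Of 10 phagocyte oxidase and defence genes, 9 were set apart as higher in leukocyte-rich libraries, with NCF1, a cytosolic oxidase subunit, at -4.34 ± 0.78 (SE). HMOX1, which breaks down haem, lay between 49.6 and 331 CPM against 512 to 5687 CPM, at -3.41 ± 0.46 (SE).

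NOS2, the inducible nitric oxide synthase known from activated macrophages, lay on the other side of that list. It was between 4.32 and 608 CPM in granulosa-rich libraries (median 268) and between 0 and 123 CPM in leukocyte-rich ones (median 5.18), at 4.26 ± 1.18 (SE). Treatment replicate 7 (4.32 CPM) lay inside the leukocyte-rich range, and treatment replicate 3 (123 CPM) lay above 3 of the granulosa-rich libraries. IL4R, the interleukin 4 receptor, went against its list too, at 2.44 ± 0.83 (SE), with 159 to 6486 CPM against 149 to 616 CPM. That difference was 1.97 without treatment replicate 7 and 2.22 to 2.36 without control replicate 1, 5, 6 or 9, and was then no longer set apart. The granulosa-rich libraries highest in IL4R are described further on.

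Antigen presentation and complement were higher in leukocyte-rich libraries but varied widely there. For MHC class II, 4 of 11 chosen members were tested: CD74, BOLA-DRA, BOLA-DMB and the protease CTSS, which also stands in the lysosomal list. BOLA-DQB and BOLA-DOA did not pass the filter. All 4 were set apart as higher in leukocyte-rich libraries (median -3.50), against 20.9% of all features, and only CTSS had no overlap. BOLA-DRA, the class II alpha chain, lay between 6.04 and 739 CPM against 263 to 9613 CPM, at -3.63 ± 0.78 (SE), and CD74, the invariant chain, between 0.653 and 111 CPM against 51.8 to 1349 CPM, at -3.38 ± 0.78 (SE). Treatment replicate 2 was the lowest leukocyte-rich library for both and lay inside the granulosa-rich range. B2M, the light chain of MHC class I, separated the kinds fully, with 109 to 1554 CPM against 1976 to 5936 CPM and -2.34 ± 0.38 (SE).

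Of 9 tested complement genes, 5 were set apart as higher in leukocyte-rich libraries (median -2.51). The share of all features on that side was 20.9%. C3AR1, a receptor for a complement peptide, was at -4.36 ± 0.61 (SE) without overlap. C1QA and C1QC, chains of the recognition molecule, overlapped, and C1QC (-2.51 ± 0.75, SE) was at -1.87 and no longer set apart without treatment replicate 3, which held 3970 CPM. C2, the next protease of the pathway, lay between 0 and 0.884 CPM against 4.85 to 10.8 CPM, with no overlap. Of 13 interferon-stimulated genes, 8 were set apart as higher in leukocyte-rich libraries (median -2.10), with OAS1X, an antiviral RNA sensor, at -2.92 ± 0.52 (SE) and ISG15 not set apart (-0.29 ± 0.68, SE).

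Lymphocyte genes divided. Of 13 tested T and NK cell markers, 12 were set apart as higher in leukocyte-rich libraries and 2 had no overlap (median -2.50). Among all features, 20.9% were set apart and 10.5% had no overlap in that direction. CD3E, a chain of the T cell receptor complex, lay between 2.12 and 63.8 CPM (median 15.9) against 39.2 to 368 CPM (median 131), at -3.02 ± 0.63 (SE). NKG7, a granule protein of cytotoxic cells, was at -4.53 ± 0.70 and CD2, an adhesion receptor, at -3.51 ± 0.73 (SE), the only 2 of the list without overlap. B and plasma cell markers did not differ in this way: of 7 tested, 1 was set apart (BLNK, -3.64 ± 0.51, SE). The median was 0.88, and it had no stable direction: it was -0.40 without control replicate 3, -0.35 without treatment replicate 6 and 1.45 without control replicate 5. MS4A1 (CD20), which marks B cells, lay between 0.653 and 195 CPM against 3.65 to 203 CPM, at 0.88 ± 1.07 (SE), so that both kinds held libraries near zero and near 200 CPM.

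Markers of other cells were checked in the same way, beside the 43.4% of all features set apart in either direction. Of 4 tested neutrophil markers only MMP9 (gelatinase B, which macrophages make too) was set apart, at -9.82 ± 1.22 (SE), with 0.163 to 3.03 CPM against 9.29 to 3569 CPM. S100A8, an abundant neutrophil calcium-binding protein, was at -1.37 ± 1.27 (SE) and at -0.14 without treatment replicate 3, and the receptors CSF3R and CXCR2 were not analysed here. PF4 (platelet factor 4) was the only tested platelet marker, at 1.14 to 14.1 CPM against 24.4 to 1737 CPM and -7.33 ± 0.83 (SE), while ITGA2B did not pass the filter. HBB, the haemoglobin beta chain, was at most 41.4 CPM in granulosa-rich and 30.6 CPM in leukocyte-rich libraries, with a fold change of 2.37 ± 1.73 (SE).

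Epithelial, stromal and endothelial counts also stand beside the 43.4% of all features set apart in either direction. None of 7 epithelial markers was set apart (median 1.29, and 0.68 without control replicate 3). Of 8 stromal and smooth muscle markers 1 was, MYH11 (smooth muscle myosin), higher in granulosa-rich libraries at 3.82 ± 0.86 (SE). The fibroblast collagen COL1A2 lay between 2.37 and 1063 CPM against 156 to 5300 CPM, at -3.64 ± 1.51 (SE), and was not set apart. Of 8 endothelial markers 4 were tested, and PECAM1, CDH5, ERG and ESAM did not pass the filter. The tested ones disagreed with each other: VWF (von Willebrand factor) was at -3.27 ± 0.97 and KDR, a receptor of vascular endothelial growth factor, at 3.54 ± 0.99 (SE). TEK was also set apart as higher in granulosa-rich libraries (2.10 ± 0.83, SE), and CLDN5 was not set apart (0.21 ± 0.98, SE). VWF was -2.86 and no longer set apart without treatment replicate 3. Their part in the differences between the kinds was not tested.

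Among genes with no overlap whose mean log2 CPM in leukocyte-rich libraries reached 5, those with the largest differences towards that side were MMP9, MMP12, SLC2A5, PF4, TREM2, CCL2, CHI3L1, NRN1, FABP5, TREM1, CCL8 and DLC1. MMP12 (macrophage elastase) lay between 0 and 2.91 CPM against 7.74 to 1590 CPM, at -8.44 ± 1.16 (SE). SLC2A5, a fructose transporter, lay between 0 and 7.74 CPM against 101 to 1257 CPM, at -7.96 ± 1.10 (SE). CHI3L1, a chitinase-like protein secreted by macrophages, was at -5.86 ± 0.75, the chemokine CCL8 at -5.55 ± 0.63 and FABP5, a fatty acid carrier, at -5.78 ± 0.89 (SE).

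General cell functions differed less. The background over all features was 22.5% set apart as higher in granulosa-rich and 20.9% as higher in leukocyte-rich libraries. Of 16 glycolysis genes 10 were set apart as higher in leukocyte-rich libraries and none the other way (median -0.91), with PFKP, a phosphofructokinase, at -1.98 ± 0.24 and the glucose transporter SLC2A3 at -2.61 ± 0.49 (SE), while ENO1 (enolase) was at -0.02 ± 0.24 (SE). Of 15 nuclear genes of oxidative phosphorylation, 5 were set apart as higher in granulosa-rich and 2 as higher in leukocyte-rich libraries (median 0.23). Together this share was near the 43.4% of all features. SDHB, a subunit of complex II, was at -0.91 ± 0.23 (SE). Of 14 ribosomal protein genes, 1 was set apart in each direction. The one higher in granulosa-rich libraries, RPS4X at 0.86, was no longer set apart without any 1 of 9 libraries (control replicates 1, 6, 7, 8 and 9 and treatment replicates 1, 2, 3 and 5) and was 0.47 without treatment replicate 5. The list median of 0.22 was 0.067 without treatment replicate 5, 0.12 without control replicate 9 and 0.14 without control replicate 7. It became -0.02 with library size alone as the scaling, which moved the median of all features from 0.03 to -0.18.

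Of 16 cell cycle genes, 5 were set apart as higher in leukocyte-rich libraries, among them CCNE1 (cyclin E1) at -1.72 ± 0.35 (SE). CCND2 (cyclin D2), the cyclin that follicle-stimulating hormone induces in granulosa cells, was the 1 member set apart the other way, with 238 to 908 CPM against 45.3 to 226 CPM and 2.21 ± 0.33 (SE). Of 12 immediate early genes, induced within minutes of a stimulus, MYC and IER3 were set apart as higher in leukocyte-rich and JUND as higher in granulosa-rich libraries, and FOS (-0.44 ± 0.57, SE) and EGR1 (0.54 ± 0.78, SE) were not set apart. JUND (1.07 ± 0.39, SE) was no longer set apart without any 1 of 9 libraries (control replicates 1, 2, 4, 5, 6, 7 and 9 and treatment replicates 1 and 5), at 0.90 to 1.09. In the group of protein folding genes 4 of 12 were set apart, all higher in granulosa-rich libraries, with PDIA6 at 0.99 ± 0.21 and CALR at 0.01 ± 0.15 (SE). For each group of this paragraph, the share set apart in either direction was below the 43.4% of all features.

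Of 15 genes often used as references, 6 were set apart as higher in leukocyte-rich libraries and none the other way (median -0.53). The share set apart was near the 43.4% of all features. Examples were ACTB (beta actin) at 1859 to 10237 CPM against 13250 to 17341 CPM and -1.82 ± 0.27 (SE), and GAPDH, at -0.89 ± 0.22 (SE). Genes with high counts and the smallest differences were HMGB2, BZW1, RPS15, SRSF3, PAK2, ENO1 and ITM2B, each between -0.02 and 0.02, beside CALR. PAK2, a protein kinase, was at -0.43 without treatment replicate 7 and -0.35 without control replicate 7, its highest libraries. SRSF3, a splicing factor, lay between 301 and 810 CPM against 551 to 674 CPM.

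The kinds were then described as mixtures. For each list, a library's level was expressed as a percentage of the median of the kind in which the list was higher, with the median taken over the tested members. Granulosa markers in the leukocyte-rich libraries stood at 0.258 to 1.24% of the granulosa-rich level in 6 libraries and at 4.5% in treatment replicate 1. In the granulosa-rich libraries they stood at 88 to 113% in 8 libraries and at 41% in treatment replicate 7. Monocyte and macrophage markers in granulosa-rich libraries ranged from 0.252% (control replicate 2) to 12.2% (treatment replicate 4) of the leukocyte-rich level, and pan-leukocyte markers from 0.163% (control replicate 2) to 29.7% (control replicate 3).

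T and NK cell markers in granulosa-rich libraries reached further than the monocyte markers did. They stood at 52.6% of the leukocyte-rich level in control replicate 3 and 54.4% in treatment replicate 6, where monocyte and macrophage markers stood at 6.73% and 6.35%. In the leukocyte-rich libraries T and NK cell markers spanned 30 to 282%, while monocyte and macrophage markers spanned 80.9 to 128%. MHC class II genes spanned 18.7 to 398% there. The leukocyte-rich libraries were thus alike in the level of the monocyte and macrophage list and unlike in lymphocyte and class II lists, as the plot of lists by library shows. Some macrophage genes outside that list varied widely there, such as MMP12 (7.74 to 1590 CPM) and C1QC (42.9 to 3970 CPM).

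**Figure D4:**
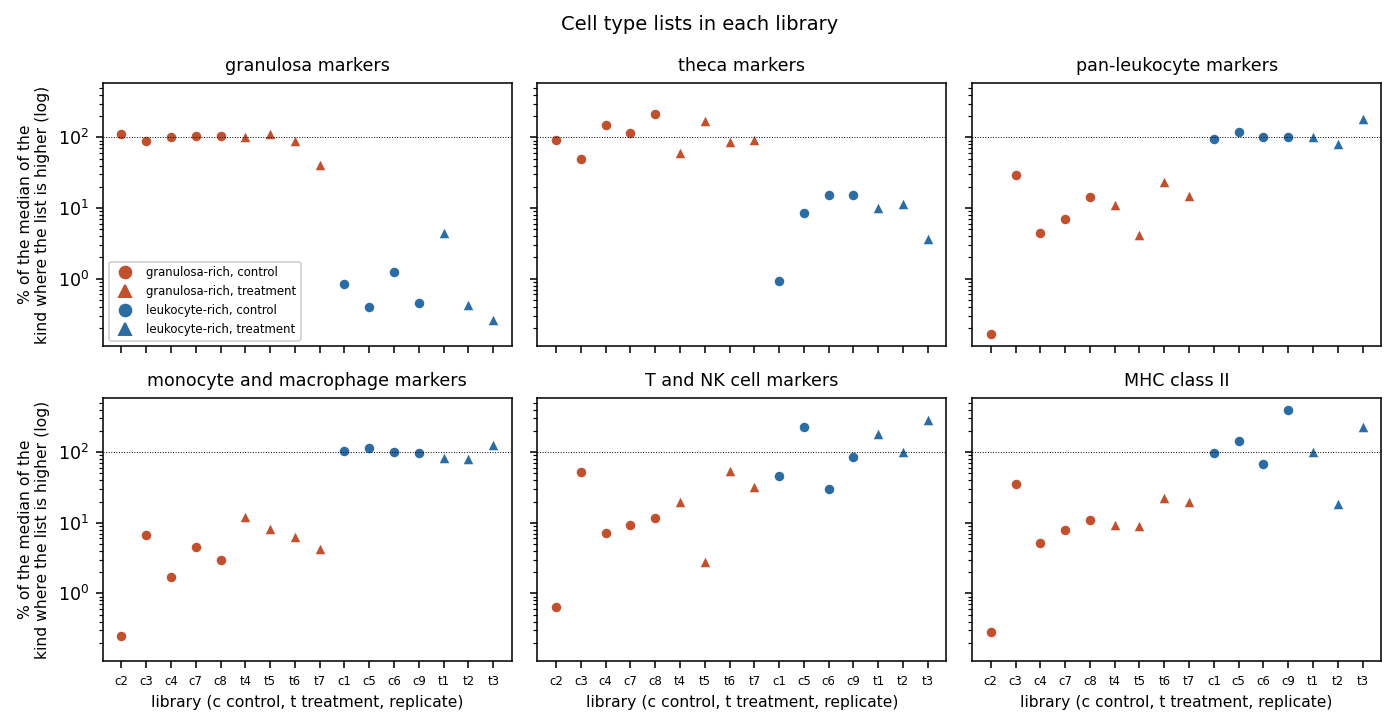
Level of 6 gene lists in each library (horizontal axis, c control and t treatment with the replicate number) as a percentage (log axis) of the median of the kind in which the list is higher, which the dotted line marks at 100. Control replicate 2 is the lowest granulosa-rich library for the 3 leukocyte panels and class II (0.163 to 0.653%), and treatment replicate 1 is the highest leukocyte-rich library for granulosa markers (4.5%).

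Libraries of 1 kind also varied among themselves, and more so in the granulosa-rich kind. Over 7262 features whose mean log2 CPM reached 1, the median SD of log2 CPM was 0.72 in granulosa-rich and 0.35 in leukocyte-rich libraries, and the SD was larger in granulosa-rich libraries for 85.2% of the features. The leukocyte RNA in the granulosa-rich libraries, given above, ranged over more than an order of magnitude, and its part in this spread was not tested. Among genes whose mean log2 CPM in the granulosa-rich libraries reached 5, those that varied most there were FGF2, NTS, PIGR and GFPT2, with SDs of 4.37, 4.18, 4.08 and 3.74.

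FGF2 (fibroblast growth factor 2) was at 23692 CPM in control replicate 7, 7205 CPM in treatment replicate 7 and 2476 CPM in control replicate 4, and between 12.2 and 92.3 CPM in the other 6 granulosa-rich libraries. GFPT2, which makes hexosamine for glycan synthesis, was highest in the same 3 libraries, at 2162, 8833 and 358 CPM, against 6.05 to 50.9 CPM in the other 6. TNFAIP6 was at 11753, 25984 and 11260 CPM in these 3, against 58.1 to 1140 CPM in the other 6. AKAP4 was at 452, 408 and 101 CPM in them, against 5.85 to 22.1 CPM in the other 6. IL4R was at 6191, 2078 and 6486 CPM, against 159 to 1202 CPM. All of these genes thus had 3 high libraries in common, 2 of them control and 1 treatment. Without treatment replicate 7 the fold change of GFPT2 between the kinds was 3.83 in place of 6.71.

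Among genes whose mean log2 CPM in the leukocyte-rich libraries reached 5, those that varied most there were PIGR, TTR, MMP9 and LYZ, with SDs of 3.88, 3.29, 3.04 and 2.91. PIGR, the receptor that carries immunoglobulins across epithelium, lay between 0.198 and 1146 CPM in granulosa-rich and between 0.761 and 1448 CPM in leukocyte-rich libraries, at 0.08 ± 1.58 (SE), and so varied within both kinds and not between them. TTR (transthyretin, a carrier of thyroid hormone and retinol) was at 0.502 CPM in treatment replicate 3 and 39.4 CPM or more in the other 6 leukocyte-rich libraries. LYZ (lysozyme) was at 3107 CPM in treatment replicate 3 and 2885 CPM in control replicate 9, against 20.2 to 394 CPM in the other 5. Its difference between the kinds, -3.54 ± 1.06 (SE), was no longer set apart without either of these (-2.55 and -2.47). MMP9 was at 3569 CPM in control replicate 6 and 9.29 CPM in control replicate 9.

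**Figure D5:**
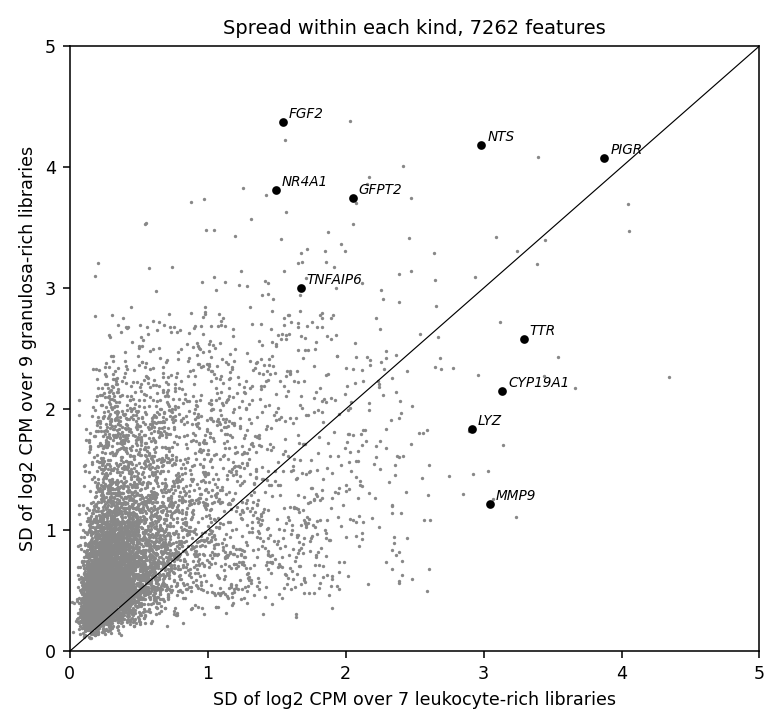
SD of log2 CPM over the 9 granulosa-rich libraries (vertical axis) against that over the 7 leukocyte-rich libraries (horizontal axis), 1 point per feature whose mean log2 CPM reached 1, and the line of equal SD. Most points (85.2%) lie above the line, with FGF2 (4.37 against 1.55) far above it and MMP9 (1.21 against 3.04) below it.

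The label was not used to make the kinds, so treatment and control could be tested with the kind held in the fit. The question was whether the label separates the libraries once their kind is taken into account. No gene of 9652 passed (0.0%) with edgeR's quasi-likelihood test at an adjusted p under 0.05, and 242 had an unadjusted p under 0.05 (2.51%). DESeq2 passed 1 gene and limma-voom 0. The 3 genes with a symbol and the lowest p were LRP4, CRYM and EIF5A2. LRP4, a receptor of the Wnt and agrin pathways, was at -1.35 ± 0.33 (SE; treatment minus control, edgeR adjusted p = 0.9993). Its leukocyte-rich libraries held 178, 81.6, 55.7 and 304 CPM in control and 51.6, 51.6 and 52 CPM in treatment. Its granulosa-rich libraries held 9.71, 22.1, 33.5, 16.3 and 26.4 CPM in control and 11.2, 7.83, 11.6 and 7.76 CPM in treatment. Control and treatment did not overlap within the leukocyte-rich kind and overlapped within the other. LRP4 was picked by its low p in this same test, so nothing is read from that separation. CRYM, a thyroid hormone binding protein, was at -2.03 ± 0.57 and EIF5A2, a translation factor, at 1.47 ± 0.44 (SE).

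It was then tested whether the difference between treatment and control itself differed between the kinds, by the interaction of label and kind. No gene passed (0.0%) with edgeR's test, 514 had an unadjusted p under 0.05 (5.33%), and the lowest adjusted p was 0.635. DESeq2 passed 29 genes and limma-voom 0. The 3 genes with a symbol and the lowest p were NR4A1, NPR3 and CEBPB.

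NR4A1, an orphan nuclear receptor induced within minutes by gonadotropins, held 79.7, 8.77, 193, 226 and 74.1 CPM in the control granulosa-rich libraries (replicates 2, 3, 4, 7 and 8). The treatment granulosa-rich libraries (replicates 4 to 7) held 1.59, 0, 1.42 and 6.88 CPM. In leukocyte-rich libraries it held 0.631, 0.822, 2.59 and 4.42 CPM in control and 4.3, 8.09 and 10.8 CPM in treatment. The labels did not overlap in the granulosa-rich kind, with treatment lower, and overlapped by 1 library in the other, with treatment mostly higher. NR4A1 was picked by its low p on the same data, so nothing is read from this pattern. The interaction was -7.41 ± 1.53 (SE; edgeR unadjusted p = 0.000209, adjusted p = 0.635), and it did not pass.

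NPR3, a clearance receptor of natriuretic peptides, held 1197, 446, 536, 657 and 471 CPM in control and 296, 162, 368 and 24.4 CPM in treatment granulosa-rich libraries. In leukocyte-rich libraries it held 0.281, 0.493, 0.381 and 0.332 CPM in control and 39.8, 1.88 and 1.09 CPM in treatment. The highest of these, treatment replicate 1, is the library with the most granulosa marker RNA of its kind, and the part of that RNA in the value was not tested. The interaction of NPR3 was -6.85 ± 1.43 (SE; edgeR adjusted p = 0.635). CEBPB held 199, 120, 374, 230 and 134 CPM in control against 54.2, 27, 54 and 43.9 CPM in treatment granulosa-rich libraries, and 113 to 588 CPM in leukocyte-rich libraries of both labels. Its interaction was -3.07 ± 0.69 (SE; edgeR adjusted p = 0.724), and in granulosa-rich libraries treatment lay below control in all 4 libraries, a pattern seen after the genes were ranked on the same data.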

How the data were processed

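The deposited files hold counts of reads per RefSeq accession, 1 file per library, not normalized by the authors. Accessions without a count are not listed and were taken as 0. The tools named per the submitters' processing notes are SAMtools, Bowtie2 and cutadapt. Not given in the sources used here are their versions, the genome build, the annotation and how reads matching several transcripts were handled. Genomic records (133 of 27306 accessions, 0.712 to 1.92% of a library's counts) were left out. Symbols came from RefSeq's gene table of ARS-UCD2.0, versions ignored: 18973 of 27173 transcript accessions matched (95.1% of counts) and were summed into 12429 genes, and 8200 unmatched transcripts were kept. Tested genes counted on more than 1 accession had a median of 5.35 CPM against 47.2 CPM for genes on 1 accession, so levels are not compared between genes, and near-identical or overlapping genes are uncertain because the kit does not mark strand. Each library was checked against every other, and none agreed within sampling noise (lowest chi-square per gene 61.7). A count of 3 is 0.212 to 0.375 CPM, counting error only.

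Fits used edgeR 4.0.16 (R 4.3.3, robust quasi-likelihood, TMM factors from 0.614 to 1.14, low-count filter by kind, Benjamini-Hochberg over all tested features), with label and kind as terms, or their interaction. The test was tried on simulated counts. Alternatives were other scalings, filters, DESeq2 1.42.0, limma-voom (limma 3.58.1), the replicate number as a block, counts per accession, matched genes alone, no label term and each library left out. The kinds, the 40 lists (482 symbols) and the tests were chosen with earlier results of these data known. Named were 12 genes per direction by size (mean log2 CPM of 5 or more in the higher kind, no overlap), up to 4 members per list, called members against their list, genes fixed by name, the 3 lowest p of each label test, the 4 most varying genes per kind (mean log2 CPM of 5 or more in it) and 8 genes of small difference. SPI1, fixed by name, was not analysed here, and some named genes are not reported here. GATM, IHH, CDH2, BMPR1B, ACVR1, BMPR2, FSTL3, SMAD3, HSD3B1, SCARB1, LHX9, SQLE, ACTA2, ESR2, TYROBP, TLR2, TLR4, CXCL8, IL1A, IL6, IL1B, IER3, TEK and CLDN5 were named after their values were seen.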

Additional observations from a re-analysis of the deposited data

Results flagged for a closer look

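The values in this section each come from 1 library that lay far from the others of its kind, by Dixon's gap over range. Of 308 groups checked (154 genes in 2 kinds), 41 held such a library. The rule flags about 1 in 20 groups of independent, normally distributed values. These genes were chosen in part by their size or spread in the same data, and several vary together. That rate is therefore no yardstick here, and nothing is read from the count. No cause was tested.

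In the granulosa-rich kind, control replicate 2 was the lowest of 9 for 7 leukocyte genes. LAPTM5 was at 5.55 CPM (109 to 470 in the other 8 libraries), and BOLA-DRA at 6.04 CPM (89.6 to 739). CD74 was at 0.653, BOLA-DMB at 0.653, CD3G at 0.653, SYK at 0.979 and RAC2 at 1.14 CPM, each below 5.18 to 14.7 CPM as the lowest of the other libraries. This library also held the lowest pan-leukocyte level of the 16.

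Treatment replicate 7 was the lowest of the granulosa-rich libraries for CYP19A1 (281 CPM), FSHR (112 CPM, others 327 to 622), INHBA (10411 CPM, others 34356 to 108924), CHST8 (3.68 CPM, others 46.6 to 156), TNNI3 (339 CPM, others 950 to 1588), NOS2 (4.32 CPM) and the ATP synthase subunit ATP5F1B (1024 CPM, others 1451 to 2071). In the same library granulosa markers as a list stood at 41% of their median.

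Treatment replicate 5 stood apart for 7 genes of different roles. It was highest for FST (24850 CPM, others 2702 to 8041), HMGCS1 (775 CPM, others 105 to 238) and RPS15 (2064 CPM, others 800 to 1121). It was lowest for PSAP (349 CPM, others 1469 to 6217), ITGB1 (34 CPM), VCAN (14.3 CPM) and SRSF3 (301 CPM).

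Treatment replicate 4 was highest for LGMN (3281 CPM, others 47.9 to 270) and OAS1Y (176 CPM, others 13.9 to 32) and lowest for LHCGR (0.595 CPM, others 9.36 to 98.5). FOS was lowest in treatment replicate 6, at 55.9 CPM (375 to 1927 in the other libraries). CANX was highest in control replicate 7, at 6032 CPM (2660 to 3981).

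In the leukocyte-rich kind, treatment replicate 1 was highest for INHBA (2161 CPM, others 14.7 to 85.8), SERPINE2 (1341 CPM, others 79.6 to 138), NPR3 (39.8 CPM), LHCGR (1.76 CPM, others 0) and HMOX1 (5687 CPM, others 512 to 1072). The first 4 of these were high in granulosa-rich libraries and HMOX1 was not. Control replicate 9 was highest for CEBPA (321 CPM, others 70.1 to 128) and lowest for the glycolysis genes GAPDH (1986 CPM, others 3880 to 6144), PGK1 (1651 CPM, others 3162 to 4671) and ENO1 (327 CPM, others 539 to 777), for CFP (257 CPM, others 440 to 631) and for S100A8, at 0 CPM (16.3 to 730). Treatment replicate 3 was highest for CEBPB (588 CPM, others 113 to 212) and lowest for TTR (0.502 CPM), CCNE1 (17.7 CPM) and CANX (2047 CPM).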

How the results depend on the processing

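The counts set apart between the kinds, 2167 higher in granulosa-rich and 2020 in leukocyte-rich libraries, stayed within 1.5 times under the other settings tried except 3. They were 1370 and 1249 when at least 10 counts in every library were required, and 990 and 1015 when tested against a 2-fold change. Leaving out each library gave 1923 to 2259 and 1847 to 2230. Scaling by library size alone moved the median of all features from 0.03 to -0.18 and the share of calls on the granulosa side from 51.8% to 42.4%. DESeq2 passed 1 gene for the label and 29 for the interaction, and leaving out libraries passed 0 to 0 in both with edgeR. The difference in total counts, 127219 in all 16 libraries, ranged from -398100 to 528400 with 1 library left out and was negative when the library left out was replicate 2, 4, 7 or 9 of control, or 1 or 7 of treatment. The cause was not tested. The difference in features detected ranged from -513.6 to -224.6. Of 4081 values of single genes under alternatives, 4060 moved by less than the larger SD of single libraries within a kind, and 21 moved by more. Leaving out 1 library seldom shifts a fit by a whole SD, so this count cannot show that the values were stable. GFPT2, at 6.71 and at 3.83 without treatment replicate 7, was among those counted as moving by less. None of the 112 named genes set apart changed direction, while 24 named genes that were not set apart did under at least 1 alternative, 12 of them with 1 library left out (among them PIGR, STAR and ISG15). Of 953 values of list medians 13 moved by more than the spread.

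The replicate number was tried as a block. Same-numbered control and treatment libraries deviated together (r over 0.1) in 2 of 7 pairs, so the numbers were not taken as a pairing. With the replicate block the counts were 895 and 960, 1794 of the 4187 calls were kept and 18 of the 4187 changed sign. Of the 21 single-gene values that moved, 20 did so under this block.

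Depth limits low genes: in the shallowest library 3 counts are 0.375 CPM.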

Other observations

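Other cell type lists varied within the granulosa-rich kind, in libraries that INHA does not distinguish. Endothelial markers stood at 1636% of their median in treatment replicate 7 and at 27.6 to 187% in the other 8 granulosa-rich libraries. This rests on the 4 tested of 8 markers (VWF, TEK, KDR and CLDN5), whose medians in granulosa-rich libraries were 0.992 to 3.08 CPM. It does not establish a content of endothelial cells. KDR was at 98.5 CPM in treatment replicate 7, 27.2 CPM in control replicate 8 and 0.789 to 6.75 CPM in the other 7. Cell junction genes stood at 452% in treatment replicate 7 and at 76.4 to 115% in the other 8. This is also 1 of the 3 libraries with high FGF2, GFPT2 and TNFAIP6, and the one with the least CYP19A1 of its kind.

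Epithelial markers stood at 1477% of their median in control replicate 3, 755% in control replicate 8 and 719% in treatment replicate 7, and at 11.2 to 107% in the other 6 granulosa-rich libraries. PIGR was highest of the 9 in control replicate 3 (1146 CPM), followed by treatment replicate 6 (532 CPM) and treatment replicate 7 (446 CPM). B and plasma cell markers were highest in control replicates 3 and 5, at 531% and 504%, 1 library of each kind. These values were chosen after they were seen, and no relation between them was tested.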
